A study of Mus musculus with 19 samples.

Results

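The data describe 38 mouse genes of DNA replication and of entry into S phase, measured in T helper 2 (Th2) cultures. The members were taken from a list of gene symbols, and each symbol is represented by its most-read transcript, summed across the 16 RNA libraries. All 38 symbols were found among the 22878 gene symbols of the RNA tables. The RNA came from 2 experiments, 1 on the gene Bcl11b and 1 on the gene Gata3, both of which encode transcription factors, with knockout (KO) and wild-type (WT) cells in each. The groups were early Bcl11b KO and early Bcl11b WT, late Bcl11b KO and late Bcl11b WT, and the same 4 groups for Gata3, with 2 libraries each. In the Bcl11b experiment, naive CD4 T cells of Bcl11b fl/fl mice with CreERT2, a Cre recombinase that 4-hydroxytamoxifen (4-OHT) activates, were grown in Th2 medium. Early KO and early WT cells spent 4 days in it, and late KO and late WT cells spent 4 days, 1 day of rest in IL-2, and 4 more days. All Bcl11b cells carried the floxed gene and the Cre. Cultures were grown with or without 4-OHT, which are read here as KO and WT, and the drug was present in the first 4 days for early cells and in the last 4 days for late cells. The drug and the deletion therefore cannot be told apart, and the sources used here do not give the promoter that drives the Cre. For the Gata3 experiment the sources used here do not give the mice or the culture. Binding of Bcl11b and GATA3 was measured by chromatin immunoprecipitation and sequencing (ChIP-seq) in late WT Th2 cells, with 1 library per antibody and 1 input library. No label says that the replicates of a group are different animals or cultures, so p-values cover only the spread between these libraries.

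DNA replication starts from origins that are licensed in G1, when the origin recognition complex (Orc1, Orc6), Cdc6 and Cdt1 load the ring of MCM proteins (Mcm2 to Mcm7) onto DNA. At the start of S phase, Cdc45 and the GINS complex (Gins1, Gins2, Gins3) join the ring and make it an active helicase, polymerase alpha with primase lays down primers, and polymerases delta and epsilon copy the strands behind the sliding clamp Pcna. Cyclin E and the E2F factors control this entry into S phase, and many replication genes are E2F targets. Activated T cells divide fast, so that the RNA of these genes in a culture follows both how many cells are cycling and how much each cell makes. In bulk RNA these cannot be told apart.

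The Bcl11b libraries held 4687552 to 14577958 reads assigned to genes, and the Gata3 libraries 5117526 to 9892746. All 38 members passed the filter on low values, which asked 2 of an experiment's 8 libraries for an RPKM (reads per kilobase, scaled to library size) of 1 or more. In the Gata3 experiment all 38 members had that RPKM in every library, and in the Bcl11b experiment 36 did. Read numbers of a member in a library ranged from 35 (Gins1) to 11138 (Rrm2) in the Bcl11b experiment. The Bcl11b early WT libraries stood apart: their gene reads made up 20.7% and 16.9% of the library total implied by the RPKM values, against 40.7% to 60.3% in the other 14 libraries. They also held 3.74 and 4.84 reads per kb over sensory receptor transcripts, which T cells should not make, against at most 0.505 elsewhere. Every comparison with early Bcl11b WT rests on these libraries and has no version without them. The Gata3 WT libraries grouped by replicate number rather than stage. Their counts differed by 2.65 (replicate 1) and 1.94 (replicate 2) times the sampling variance between the late and early library of one number, against 4.60 between the late WT and 4.76 between the early WT replicates (median over genes). Bcl11b, the deleted gene, had 66.5 and 54.2 CPM (counts scaled to a common library size) in early KO, against 126 and 128 CPM in early WT. In late cultures it had 75.6 and 137 CPM in KO, against 139.7 and 180.5 CPM in WT. The late groups were thus separated by less than the KO libraries differed between themselves, and the late fall was not called (adjusted p = 0.421). Gata3 had 425 and 419 CPM in early KO, against 1178 and 1280 CPM in early WT. It had 1090 and 954 CPM in late KO, against 1382 and 1327 CPM in late WT.

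Promoter windows from 250 bases before to 50 bases after an annotated start were available from RefSeq (GRCm38.p6) for 31 of the 38 members. No window was matched for Prim2, Pole, Gins2, Gins1, Ccne2, Mcm4 and Rfc2. One of 4 octamers of the E2F type (TTTCGCGC, TTTGGCGC, TTTCCCGC, TTTGCCGC, on either strand) was found for 14 of 31 members (45.2%), against 4.88% of the 8020 genes with a window that were tested for expression in either experiment. The pentamer CCAAT, the letters that the factor NF-Y binds, was found on either strand for 20 of 31 members (64.5%), against 43.5% of those genes. The letters GATA, preceded by A or T and followed by A or G, on either strand, were found for 4 of 31 (12.9%), against 22.2%. Matches of different motifs overlapped in 1 place. A match is a match of letters and not a measured site. The windows below belong to the 4 members with the smallest p-values in the late Bcl11b and early Gata3 comparisons. Each is written 5′ to 3′ along the gene with E2F octamers and CCAAT matches in capitals. For Lig1, which has 3 RefSeq starts, the window shown is the one that holds an octamer (chr7:13278576-13278875, plus strand). The Cdt1 window is chr8:122567765-122568064 on the plus strand, the Rpa2 window is chr4:132768110-132768409 on the plus strand, and the Tk1 window is chr11:117825965-117826264 on the minus strand.
Cdt1: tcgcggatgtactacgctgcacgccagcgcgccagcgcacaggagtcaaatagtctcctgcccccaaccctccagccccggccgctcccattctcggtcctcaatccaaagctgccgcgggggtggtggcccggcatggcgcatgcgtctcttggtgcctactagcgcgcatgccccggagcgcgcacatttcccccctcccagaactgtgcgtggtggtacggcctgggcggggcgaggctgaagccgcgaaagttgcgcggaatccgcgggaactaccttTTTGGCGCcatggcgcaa
Tk1: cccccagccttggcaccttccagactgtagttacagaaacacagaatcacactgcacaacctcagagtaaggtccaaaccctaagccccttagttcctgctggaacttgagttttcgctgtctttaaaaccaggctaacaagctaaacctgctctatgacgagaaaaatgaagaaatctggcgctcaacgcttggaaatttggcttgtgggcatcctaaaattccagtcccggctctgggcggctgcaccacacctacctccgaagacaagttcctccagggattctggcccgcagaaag
Lig1: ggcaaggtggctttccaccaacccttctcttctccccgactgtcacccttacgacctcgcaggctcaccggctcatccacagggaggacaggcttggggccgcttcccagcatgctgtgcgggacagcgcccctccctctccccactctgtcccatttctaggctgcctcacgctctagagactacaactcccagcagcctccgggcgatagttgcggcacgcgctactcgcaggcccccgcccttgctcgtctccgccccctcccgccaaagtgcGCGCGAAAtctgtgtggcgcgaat
Rpa2: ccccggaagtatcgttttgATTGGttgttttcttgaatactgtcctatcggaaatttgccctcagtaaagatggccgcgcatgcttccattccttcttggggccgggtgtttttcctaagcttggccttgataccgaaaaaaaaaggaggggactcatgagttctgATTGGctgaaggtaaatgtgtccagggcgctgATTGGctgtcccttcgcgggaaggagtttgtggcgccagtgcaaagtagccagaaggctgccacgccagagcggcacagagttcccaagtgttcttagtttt
The Cdt1 window holds 1 octamer just after the start, the Lig1 window holds 1 octamer, the Rpa2 window holds 3 CCAAT boxes in the reverse orientation (ATTGG), and the Tk1 window holds no match. Bcl11b peaks overlapped the Cdt1, Rpa2 and Tk1 windows, a GATA3 peak overlapped the Rpa2 window, and no peak overlapped the Lig1 window.

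Levels per gene length set the members in order within each group. Rrm2, the small subunit of ribonucleotide reductase, which makes deoxynucleotides, had the highest level in 5 of the 8 groups, with 366 CPM per kb in early Gata3 KO, 349 in early Gata3 WT, 189 in late Bcl11b KO and 328 in late Bcl11b WT. Pcna led in the other groups, with 173 CPM per kb in early Bcl11b KO, 199 in early Bcl11b WT and 243 in late Gata3 KO. The lowest member in all 4 Gata3 groups was Pole, the catalytic subunit of polymerase epsilon, at 5.80 to 7.16 CPM per kb. Pold1, the catalytic subunit of polymerase delta, was lowest in late Bcl11b KO (6.01 CPM per kb) and late Bcl11b WT (9.86). The 6 MCM genes, whose products form a ring with 1 copy of each, spanned a 3.89-fold range per kb in early Bcl11b KO, 4.71 in early Bcl11b WT, 3.84 in late Bcl11b KO and 3.54 in late Bcl11b WT. In the Gata3 experiment the range was 2.05-fold in early KO, 2.42 in early WT, 2.99 in late KO and 2.57 in late WT. Mcm6 was the highest MCM gene in 6 groups, and Mcm5 was the highest in the early Bcl11b groups and the lowest in the late ones.

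**Figure D1:**
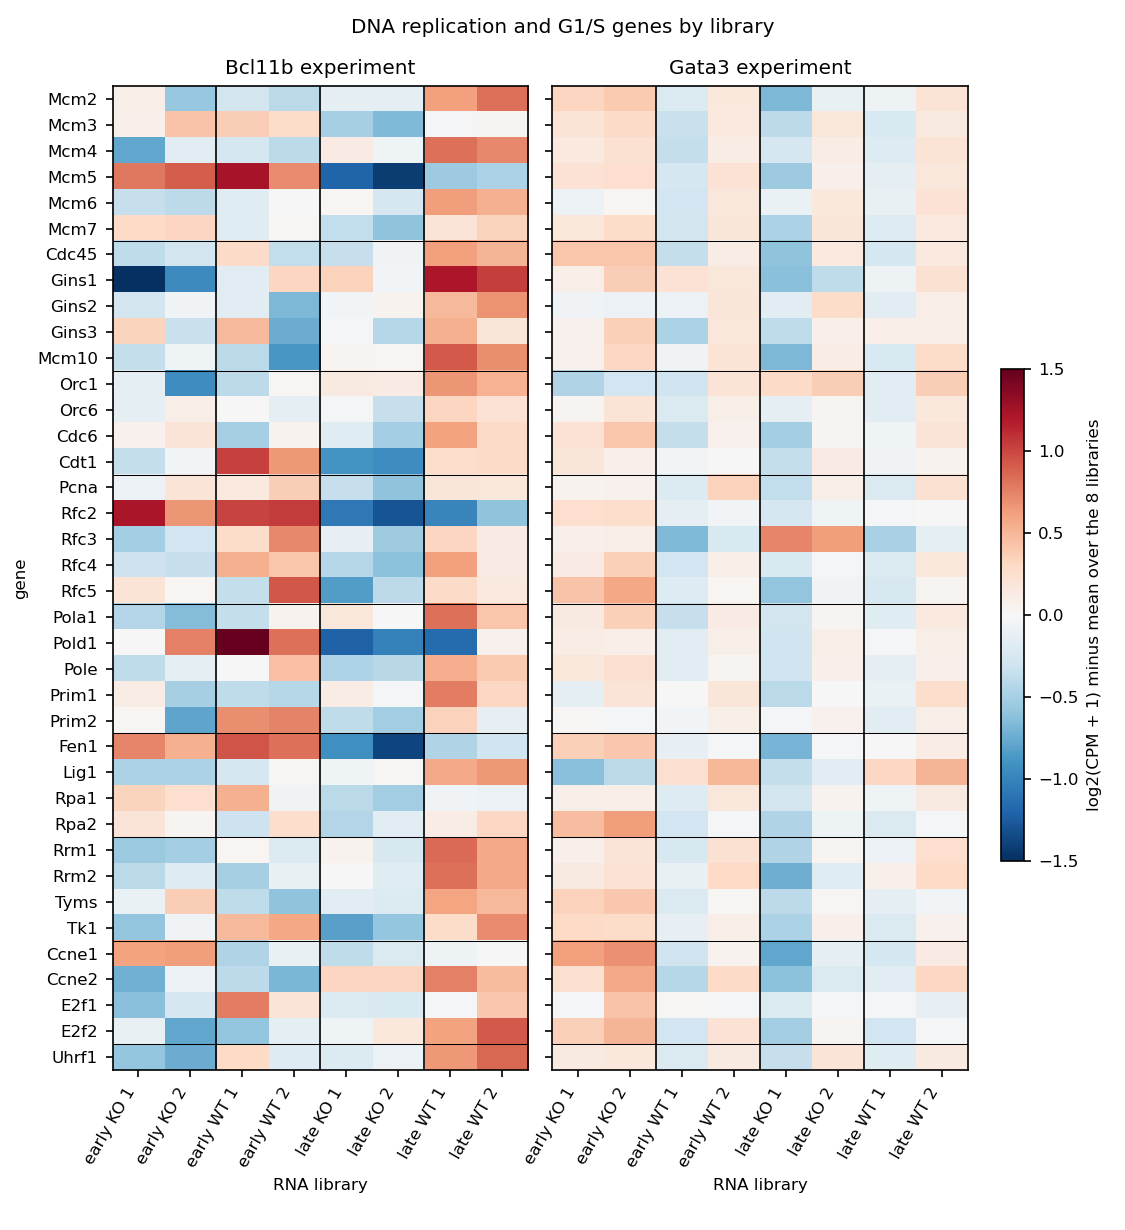
Level of each of the 38 genes (rows, by role) in each of the 16 RNA libraries (columns, KO left of WT at each stage), as log2(CPM + 1) minus the gene's mean over the 8 libraries of its experiment. In the late Bcl11b columns nearly every gene is lower in both KO libraries than in both WT libraries. In the Gata3 experiment late KO replicate 1 is below late KO replicate 2 for 37 of 38 genes, an order whose share over all genes was not computed.

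Late Bcl11b KO cultures had less RNA of the whole replication set than late WT cultures. All 38 members had a negative log2 fold change, with a median of -0.72 and a range of -1.23 to -0.27, against a median of -0.02 over all 10873 genes tested. Their summed level was 3675 and 3388 CPM in late KO, against 5863 and 5648 CPM in late WT. In 37 of 38 members both KO libraries were below both WT libraries, where 27.5% of all genes tested were. The exception was Pold1, with 19.0 and 22.1 CPM in KO, against 19.9 and 47.6 CPM in WT. Single genes seldom passed the test: 2 of 38 fell by the quasi-likelihood test of edgeR (Benjamini-Hochberg adjusted p below 0.05, over the whole table), where 0.524% of all genes tested fell.

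The 2 members that fell were Cdt1, which loads the MCM ring at origins, and Tk1, the thymidine kinase that salvages thymidine for DNA synthesis. Cdt1 had 27.9 and 27.4 CPM in late KO, against 63.7 and 65.2 CPM in late WT. The replicates nearly coincided in both groups, and Cdt1 fell by 1.22 ± 0.25 on the log2 scale (SE, n = 2 libraries per group, adjusted p = 0.0335). Tk1 had 31.5 and 37.2 CPM in late KO, against 68.6 and 92.5 CPM in late WT. The groups did not overlap, and Tk1 fell by 1.23 ± 0.27 on the log2 scale (adjusted p = 0.0485). Rrm1, the large subunit of ribonucleotide reductase, had 301 and 245 CPM in late KO, against 523 and 431 CPM in late WT, with a log2 fold change of -0.80 ± 0.18 that just missed the threshold (adjusted p = 0.0503).

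The other roles shared this direction in the late Bcl11b cultures. The 6 MCM genes had log2 fold changes of -0.87 to -0.58. Mcm2 had 107 and 108 CPM in late KO, against 182 and 212 CPM in late WT, and Mcm6 had 323 and 266 CPM in late KO, against 491 and 458 CPM in late WT. Both showed a clear gap between the groups, wider than the distance between replicates. The 5 partners that activate the helicase had a median of -0.78. Among them, Gins1 had 18.9 and 14.2 CPM in late KO, against 35.3 and 31.1 CPM in late WT. The clamp Pcna had 164 and 137 CPM in late KO, against 238 and 235 CPM in late WT. The subunits of replication factor C, which loads the clamp, differed among themselves, with -0.93 for Rfc4 and -0.40 for Rfc2 at the ends. Pole had 65.8 and 68.1 CPM in late KO, against 133 and 120.3 CPM in late WT, the widest gap of the polymerase and primase genes, whose fold changes were -0.92 to -0.51. Uhrf1, which brings the maintenance DNA methyltransferase to newly copied DNA, had 67.3 and 72.9 CPM in late KO, against 122 and 141 CPM in late WT. The smallest differences were those of 2 G1/S control genes, Ccne1 (-0.27) and Ccne2 (-0.30). The others of this role, E2f1 and E2f2, had -0.44 and -0.73. Ccne1, which encodes cyclin E1, had 27.0 and 30.3 CPM in late KO, against 33.6 and 35.3 CPM in late WT, and its paralog Ccne2 had 54.3 and 54.2 CPM in late KO, against 73.2 and 60.5 CPM in late WT.

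**Figure D2:**
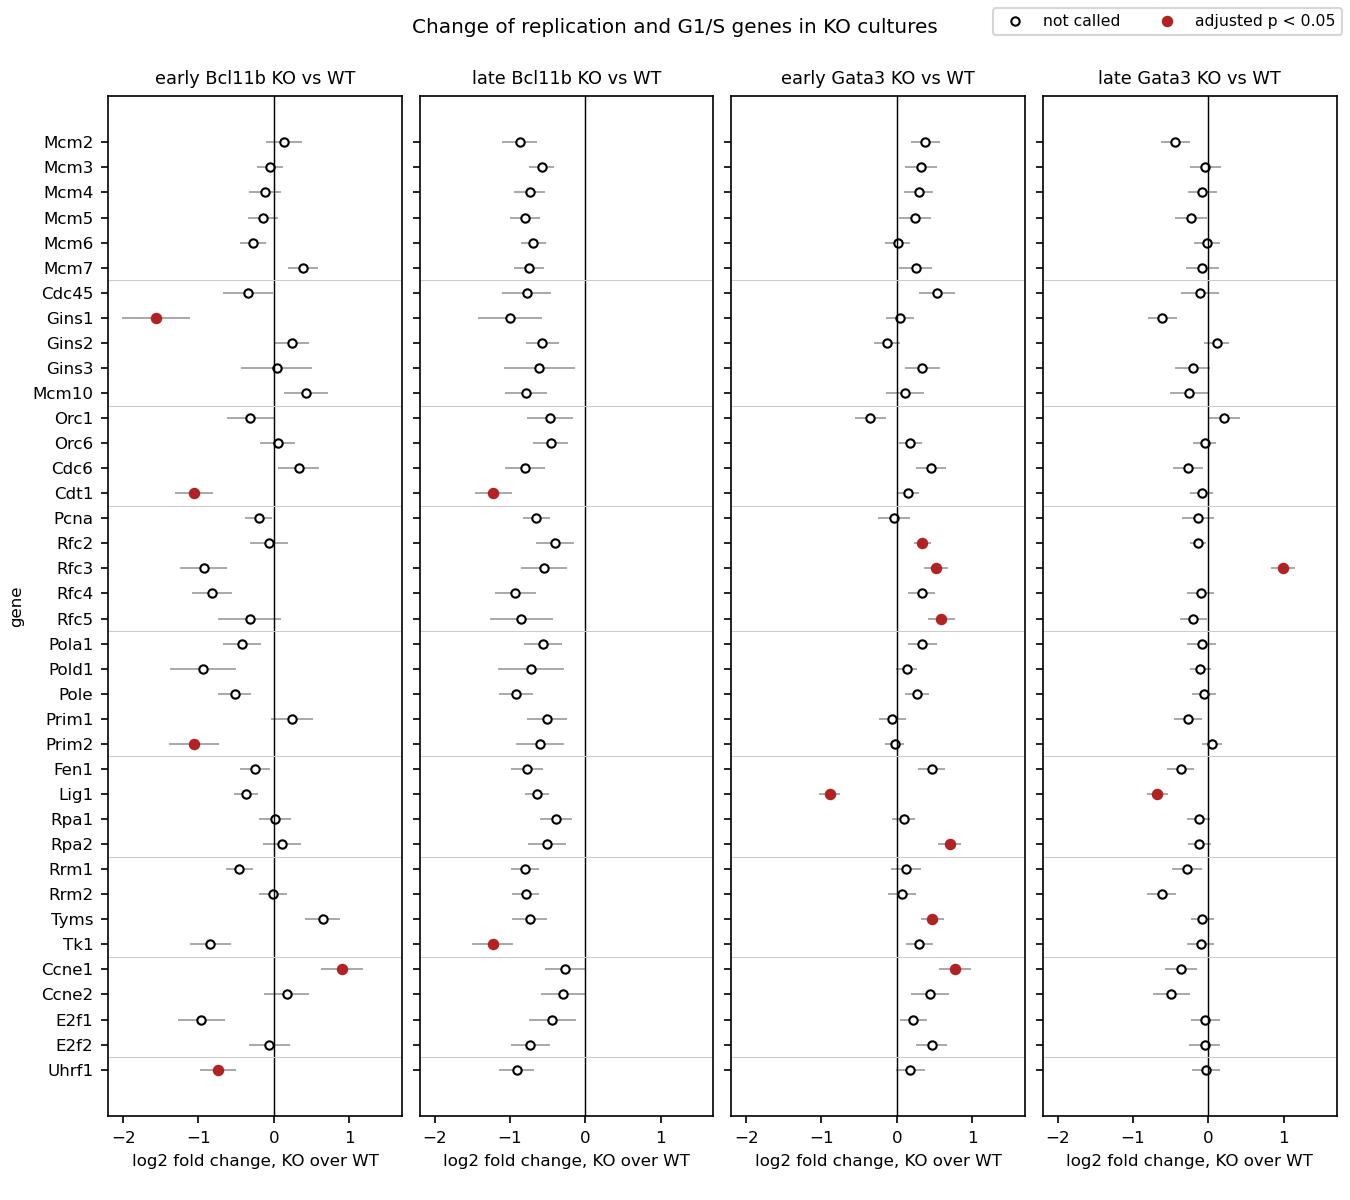
Log2 fold change of each gene, KO over WT, in the 4 KO comparisons (points, with bars for 1 SE), from edgeR fits of 8 libraries per experiment. Filled points passed an adjusted p below 0.05: 5 genes in early Bcl11b KO, 2 in late Bcl11b KO, 7 in early Gata3 KO and 2 in late Gata3 KO, and only in late Bcl11b KO do all 38 points lie below 0.

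Genes around the members gave a graded picture in late Bcl11b KO. Of 37 tested further replication factors, 3 fell, with a list median of -0.65: Dnmt1, the maintenance DNA methyltransferase (-0.89 ± 0.17, adjusted p = 0.0265), Timeless, a fork protection factor (-1.25 ± 0.26, adjusted p = 0.0337), and Dut, which removes dUTP (-0.99 ± 0.21, adjusted p = 0.0379). Of 25 tested further G1/S regulators, 20 had a negative fold change with a median of -0.32, and by edgeR 0 were called. An unadjusted p under 0.05 was found for 6 of them and for 1410 of all 10873 genes. Of 20 mitosis genes, 11 fell, with a median of -0.97. Over all genes tested 0.524% fell. Markers of other cells differed in the same libraries. The 5 B cell markers summed to 20.1 and 31.4 CPM in late KO, against 5.18 and 4.40 CPM in late WT, and the 6 macrophage and dendritic cell markers found in the tables to 32.9 and 33.1 CPM in late KO, against 14.3 and 10.0 CPM in late WT. The B cell marker Ms4a1 was at 0 in late WT replicate 2, and 1 macrophage or dendritic cell marker was at 0 in each late library. In early cultures the B cell markers summed to 96.1 and 130.9 CPM in KO, against 102 and 86.8 CPM in WT. The 6 T cell markers, all detected in every library, summed to 8465 and 7570 CPM in late KO, against 5691 and 5176 CPM in late WT. Cd4 made up most of this gap, with 3778 and 3301 CPM in late KO, against 1288 and 1392 CPM in late WT. Of the 6 markers, 2 rose, where 1.69% of all genes tested rose, and 2 had a negative fold change. The part of these cells in the lower replication RNA was not tested.

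The number of single genes called in late Bcl11b KO depended on the fit. A fit of the 4 late libraries alone called 24 members lower (6.10% of its genes), and DESeq2 called 15 (1.88%). A fit without both early WT libraries called 10 (1.28%), and leaving out early WT replicate 1 or 2 gave 10 (1.28%) or 9 (1.17%). Leaving out any late library leaves 1 library in a late group. The members' calls were then lost, and calls over all genes became far fewer too. All 38 members stayed negative in each of these fits except the one without late WT replicate 2, where 37 did.

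**Figure D3:**
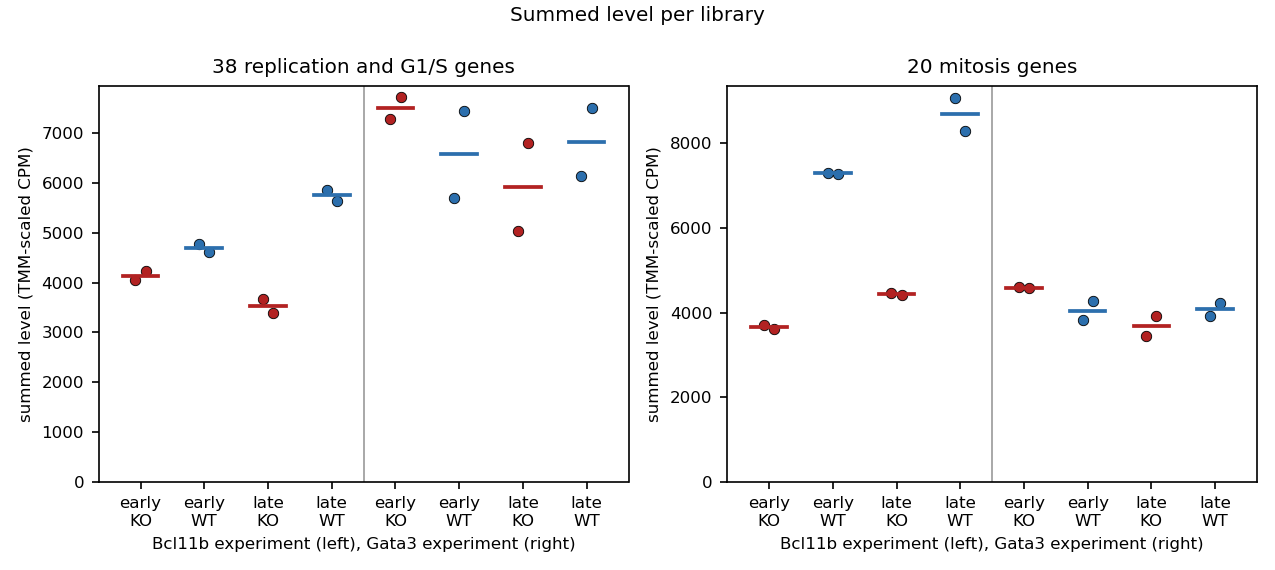
Summed level of the 38 replication and G1/S genes (left) and of 20 mitosis genes (right) in each library, in TMM-scaled CPM, with points for libraries and lines for the mean of 2. The late Bcl11b KO libraries hold 3675 and 3388 CPM of the replication genes, against 5863 and 5648 CPM in late WT, and for the replication genes the KO and WT libraries of the Gata3 experiment overlap at both stages.

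Early Bcl11b KO cultures did not share this pattern. The median log2 fold change of the members was -0.17, with a range of -1.56 to 0.91, against 0.03 over all genes tested. Of 38 members 1 rose, where 11.0% of all genes tested rose, and 4 fell, where 10.1% fell. Both KO libraries were above both WT libraries for 5 members, where 28.8% of all genes were, and below them for 15, where 25.1% were. The summed level was 4046 and 4231 CPM in early KO, against 4768 and 4623 CPM in early WT.

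Ccne1 was the member that rose. It had 54.1 and 55.4 CPM in early KO, against 25.6 and 32.7 CPM in early WT, a log2 fold change of 0.91 ± 0.28 (adjusted p = 0.0402). The KO libraries were close together and well above WT. Cdt1 had 41.1 and 51.7 CPM in early KO, against 109 and 84.0 CPM in early WT, and fell by 1.06 ± 0.25 on the log2 scale (adjusted p = 0.0141). Cdt1 thus passed the test at both stages, in comparisons that share no library but share one estimate of spread. Gins1 had 3.65 and 7.06 CPM in early KO, against 12.98 and 18.7 CPM in early WT, a gene of low level in all of these libraries (log2 fold change -1.56 ± 0.45, adjusted p = 0.033). Prim2, the large subunit of primase, had 43.9 and 24.4 CPM in early KO, against 70.2 and 72.7 CPM in early WT (-1.06 ± 0.33, adjusted p = 0.0414). Uhrf1 had 51.6 and 45.9 CPM in early KO, against 95.3 and 67.9 CPM in early WT (-0.74 ± 0.24, adjusted p = 0.0471). The KO replicates were below both WT replicates in each of these 4 genes.

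The licensing and helicase genes outside these calls moved little in early Bcl11b KO. The 6 MCM genes had fold changes of -0.28 to 0.39, and Mcm3 had 289 and 370 CPM in early KO, against 353 and 331 CPM in early WT, so that its groups overlapped. In contrast, 15 of 20 mitosis genes fell, with a median of -1.03, and their summed level was 3716 and 3619 CPM in early KO, against 7304 and 7278 CPM in early WT. Among 37 further replication factors 8 fell. Among 25 further G1/S regulators 5 rose and 2 fell. Over all genes tested 11.0% rose and 10.1% fell. Rbl2, a repressor of E2F targets related to the retinoblastoma protein, had 661 and 571 CPM in early KO, against 142 and 162 CPM in early WT (2.02 ± 0.17, adjusted p = 9.65e-05). Ccnd2, which encodes cyclin D2, had 2048 and 1578 CPM in early KO, against 483 and 601 CPM in early WT (1.74 ± 0.19, adjusted p = 0.000323). The inhibitor gene Cdkn1b had 15.5 and 27.2 CPM in early KO, against 81.3 and 66.2 CPM in early WT (-1.79 ± 0.33, adjusted p = 0.00476).

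The early Bcl11b calls differed between fits. On RPKM with limma, where the median of all genes moved to 0.86, 24 members rose (60.3% of all genes did) and 0 fell (3.09% of all genes did), while a fit of the 4 early libraries called 0 higher, where 4.65% of its genes were, and 0 lower, where 6.16% were. Leaving out any one late library left 0 rises, where 7.10% to 7.27% of all genes rose, and 1 fall, where 7.23% to 8.09% fell. The fall was that of Cdt1, which was called with any 1 of the 8 libraries left out. The calls of Ccne1, Prim2 and Uhrf1 were each lost in 7 of these 8 fits, and that of Gins1 in 6.

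The difference between the late and early Bcl11b effects was negative for 33 of 38 members, with a median of -0.46 against -0.04 over all genes. Tyms, thymidylate synthase, was the member called, with a difference of -1.39 ± 0.32 on the log2 scale (adjusted p = 0.0459). Differences below 0 were called for 1.29% of all genes, and differences above 0 for 1.95%, with no member among them. It had 76.0 and 105.7 CPM in early KO, against 62.2 and 53.4 CPM in early WT, and 72.1 and 70.7 CPM in late KO, against 123 and 115 CPM in late WT. Its KO libraries were thus above WT at the early stage and below WT at the late stage. Mcm7 (-1.14 ± 0.28, adjusted p = 0.0557) and Mcm2 (-1.01 ± 0.33, adjusted p = 0.129) had the next smallest p-values and missed the threshold. The 20 mitosis genes had a median difference of 0.03 between the stages, and by edgeR 0 were called. The Tyms call was lost without any one of the 4 late libraries, without early KO replicate 2 and without early WT replicate 2 (adjusted p of 0.0363 to 0.239 over the 8 libraries left out in turn).

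Between late and early WT cultures of the Bcl11b experiment the members split. Of 38, 14 rose, where 19.7% of all genes tested rose, and 4 fell, where 22.0% fell. Among those that rose, Rrm2 had 780 and 650.5 CPM in late WT, against 311 and 405 CPM in early WT (1.00 ± 0.19, adjusted p = 0.00186). Mcm4 had 435 and 406 CPM in late WT, against 205 and 187 CPM in early WT (1.10 ± 0.21, adjusted p = 0.00226). Mcm10, which helps the helicase start, had 71.0 and 60.8 CPM in late WT, against 27.9 and 19.9 CPM in early WT (1.46 ± 0.29, adjusted p = 0.00269). These groups were far apart. The genes that fell were Mcm5, Rfc2, Fen1, the nuclease that trims Okazaki fragments, and Pold1. Mcm5 had 154.5 and 162 CPM in late WT, against 531.5 and 369 CPM in early WT (-1.51 ± 0.20, adjusted p = 0.000257). Rfc2 had 34.4 and 45.2 CPM in late WT, against 141 and 144 CPM in early WT (-1.84 ± 0.26, adjusted p = 0.000351). Fen1 had 91.4 and 102 CPM in late WT, against 242 and 224 CPM in early WT (-1.27 ± 0.21, adjusted p = 0.000917). In Rfc2 and Fen1 the replicates lay much closer together than the groups. The early WT replicates of Mcm5 lay far apart, and both were above the late WT libraries. Pold1 had 19.9 and 47.6 CPM in late WT, against 154 and 81.7 CPM in early WT (-1.80 ± 0.45, adjusted p = 0.00896), and its call was lost without early WT replicate 1 or late WT replicate 1 (adjusted p up to 0.0716).

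Markers of other cells differed between the same WT libraries. The 5 B cell markers summed to 5.18 and 4.40 CPM in late WT, against 102 and 86.8 CPM in early WT, and the 6 erythroid and neutrophil markers to 0.28 and 0.289 CPM in late WT, where 4 of the 6 were at 0 in each library, against 23.9 and 27.5 CPM in early WT, where 3 were. The 5 mast cell and basophil markers summed to 0.490 and 0.144 CPM in late WT, against 3.98 and 11.9 CPM in early WT. The part of these cells in the members' differences was not tested.

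The KO libraries of the same stages give Mcm5, Rfc2 and Fen1 apart from the libraries that stood out. Mcm5 had 97.6 and 83.3 CPM in late KO and 392 and 425 CPM in early KO. Rfc2 had 32.4 and 27.7 CPM in late KO and 164 and 110.3 CPM in early KO, and Fen1 had 66.0 and 47.6 CPM in late KO and 209 and 182 CPM in early KO. In 5 members (these 3, Mcm3 and Rpa1, a subunit of the single-strand binding protein) every late library of the experiment was below every early one, KO and WT alike. In 6 members (Mcm4, Gins2, Mcm10, Orc1, Ccne2 and E2f2) every late library was above every early one. The shares of all genes with these 2 orders were not computed, so the counts are not a trait of the members. Mcm4 had 269 and 235 CPM in late KO and 142 and 218 CPM in early KO. On RPKM with limma, 34 members rose (65.1% of all genes did) and 0 fell (6.38% of all genes did). The median of all genes was 1.04 in that fit. Fen1 was at 0.19 there, above 0 where edgeR had it below 0, but below that median. With late WT replicate 1 left out, which leaves 1 late WT library, fewer members and a smaller share of all genes rose.

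**Figure D4:**
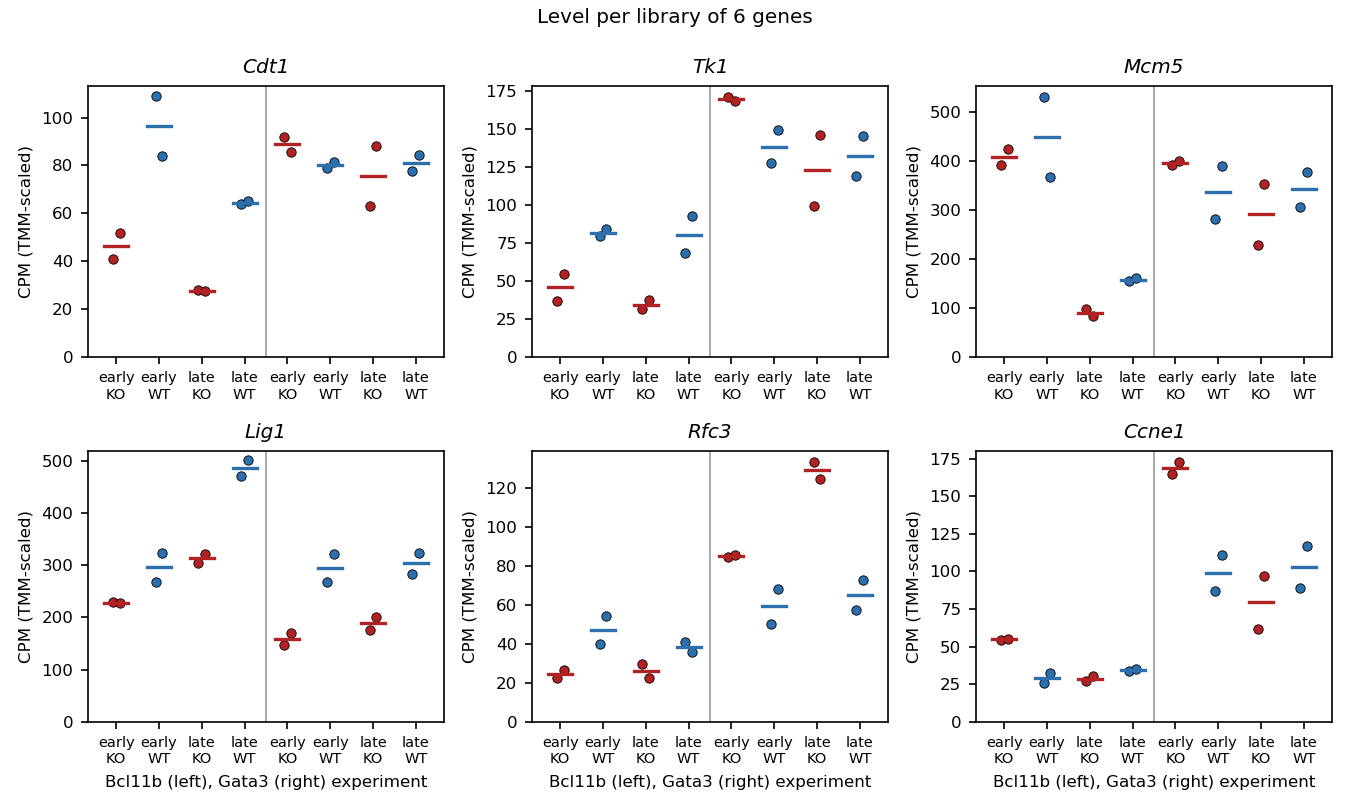
Level of Cdt1, Tk1, Mcm5, Lig1, Rfc3 and Ccne1 in each library, in TMM-scaled CPM (points, with lines for the mean of 2), with KO left of WT at each stage. Cdt1 and Tk1 are below WT in both stages of Bcl11b KO, Mcm5 is high in both early Bcl11b groups, and in both stages of Gata3 KO Lig1 is below WT and Rfc3 above it.

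In early Gata3 KO cultures, by the fit used throughout, members rose about as often as all genes tested, and Lig1 alone fell. The number of members called higher depended on the fit. The median log2 fold change of the members was 0.26, with a range of -0.89 to 0.77, against 0.00 over all 10601 genes tested. Of 38 members 6 rose, where 14.0% of all genes tested rose, and 1 fell, where 16.8% fell. Both KO libraries were above both WT libraries for 20 members, where 33.0% of all genes were, and below them for 1, where 34.1% were. The summed level was 7283 and 7736 CPM in early KO, against 5705 and 7456 CPM in early WT, with KO replicate 1 below WT replicate 2. At each replicate number the KO sum was above the WT sum. A fit with no filter on low values called 12 members higher, where 11.8% of all genes were, and 1 lower, where 13.9% were. A fit with a replicate block called 16 members higher, where 18.6% of all genes were, and 1 lower, where 21.3% were. The labels do not tie replicate numbers to a shared source.

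Lig1, the ligase that joins Okazaki fragments, was the member that fell. It had 146 and 171 CPM in early KO, against 267 and 321 CPM in early WT, and fell by 0.89 ± 0.14 on the log2 scale (adjusted p = 0.000884). The call held with any 1 of the 8 libraries left out (adjusted p of 0.00117 to 0.0174). Its fall stood against the direction of 32 other members. Rpa2, a subunit of the protein that coats single-stranded DNA, had 158 and 177 CPM in early KO, against 93.5 and 112 CPM in early WT (0.70 ± 0.15, adjusted p = 0.00577). Ccne1 had 165 and 173 CPM in early KO, against 86.8 and 111 CPM in early WT (0.77 ± 0.21, adjusted p = 0.0194). Both were well apart from WT. Of the clamp loader genes, Rfc5 had 129.7 and 144 CPM in early KO, against 83.9 and 98.2 CPM in early WT (0.59 ± 0.18, adjusted p = 0.0308). Rfc2 had 156 and 158 CPM in early KO, against 119 and 128 CPM in early WT (0.34 ± 0.11, adjusted p = 0.0356). Rfc3 had 84.2 and 85.2 CPM in early KO, against 50.1 and 68.1 CPM in early WT (0.52 ± 0.16, adjusted p = 0.0372). In these 3 loader genes the KO replicates lay close together and above both WT replicates. Tyms had 165 and 172 CPM in early KO, against 112 and 132 CPM in early WT (0.47 ± 0.15, adjusted p = 0.0358).

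The MCM genes did not pass the test in early Gata3 KO. Mcm2 had 402 and 422 CPM in early KO, against 275 and 358 CPM in early WT, and Mcm6 had 587 and 633 CPM in early KO, against 510.5 and 702 CPM in early WT. The Mcm6 groups overlapped, since WT replicate 2 was the highest library. The CD8 T cell markers differed in the same libraries. Cd8a had 16.6 and 12.2 CPM in early KO, against 1.63 and 0.877 CPM in early WT, and Cd8b1 had 22.4 and 18.8 CPM in early KO, against 9.89 and 7.51 CPM in early WT, and both rose (adjusted p = 4.12e-05 for Cd8a and 0.0019 for Cd8b1). At the late stage these 2 markers summed to 24.7 and 19.9 CPM in KO, against 12.0 and 11.0 CPM in WT. Their part in the members' differences was not tested. Of 37 further replication factors 4 rose (Asf1b, Chaf1b, Donson, Slbp) and 1 fell (Pold4), and of 20 mitosis genes 4 rose and 1 fell. Of 26 further G1/S regulators 4 rose and 5 fell. Over all genes tested 14.0% rose and 16.8% fell, so the regulator counts lie near those shares. The regulators named next rose, and those that fell are not named. Cdkn2b, an inhibitor of Cdk4 and Cdk6, had 10.5 and 11.8 CPM in early KO, against 2.98 and 3.26 CPM in early WT (1.83 ± 0.26, adjusted p = 0.000434). Ccnd3, which encodes cyclin D3, had 792 and 696 CPM in early KO, against 481 and 453 CPM in early WT (0.67 ± 0.11, adjusted p = 0.00097). Leaving out early KO replicate 2 left 0 members that rose, where 8.62% of all genes did. Leaving out early KO replicate 1 or early WT replicate 1 left 1, where 8.48% or 10.8% of all genes rose.

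In late Gata3 KO cultures Rfc3 rose and Lig1 fell, and the other members were not called. The median of the members was -0.11, against 0.00 over all genes, and 34 of 38 were negative. The called shares were 1 of 38 higher, where 8.44% of all genes tested rose, and 1 of 38 lower, where 5.59% fell. Both KO libraries were above both WT libraries for 1 member, where 28.5% of all genes were, and below them for 8, where 25.6% were. Rfc3 had 133 and 124 CPM in late KO, against 57.0 and 72.4 CPM in late WT (0.99 ± 0.16, adjusted p = 0.00315). The other loader genes among the members, Rfc2, Rfc4 and Rfc5, were not called at this stage, with fold changes of -0.20 to -0.10. Lig1 had 176 and 201.5 CPM in late KO, against 282 and 324 CPM in late WT (-0.68 ± 0.14, adjusted p = 0.0105). Rrm2 had 425 and 622 CPM in late KO, against 741 and 869 CPM in late WT (-0.62 ± 0.19, adjusted p = 0.0618), a gap that missed the threshold.

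The summed level was 5031 and 6808 CPM in late KO, against 6151 and 7505 CPM in late WT. Replicate 1 was thus the lower library in both groups, as in early WT (5705 and 7456 CPM). At each replicate number the late KO sum was below the late WT sum. Late KO replicate 1, the library with the fewest gene reads of the experiment, was below KO replicate 2 for 37 of 38 members. The share of all genes with this order was not computed. Leaving it out, which sets KO replicate 2 against both WT replicates, bore on the sign of most members. Without it the median was 0.05 and 13 of 38 members were negative, Rfc3 was still called (adjusted p = 0.0192) and Lig1 was not (adjusted p = 0.0628), nor was it without late WT replicate 2 (adjusted p = 0.0768). The Rfc3 rise was called with any 1 library left out (adjusted p of 0.0013 to 0.026).

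The late effect of Gata3 KO was lower than the early one for 33 of 38 members, with a median difference of -0.38 against 0.01 over all genes. Of 38, 2 fell (4.47% of all genes tested fell) and 0 rose (7.74% rose). An unadjusted p under 0.05 was found for 11 members and for 2791 of all 10601 genes, a similar share. DESeq2 called 6 falls, where 4.93% of all genes fell. Ccne1 fell by 1.13 ± 0.30 on the log2 scale (adjusted p = 0.0361), with 165 and 173 CPM in early KO, against 86.8 and 111 CPM in early WT, and 61.9 and 97.2 CPM in late KO, against 89.2 and 117 CPM in late WT. Rpa2 fell by 0.83 ± 0.21 (adjusted p = 0.0335), with 158 and 177 CPM in early KO, against 93.5 and 112 CPM in early WT, and 83.4 and 109 CPM in late KO, against 98.5 and 112 CPM in late WT. In both genes the early groups were apart and the late groups overlapped. Both calls were lost without either early KO library, without early WT replicate 1, without late KO replicate 1 or without late WT replicate 2, each left out alone. Fen1 had the next smallest p-value (-0.84 ± 0.26, adjusted p = 0.0661).

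The late and early WT cultures of the Gata3 experiment did not differ in any member by the test. The members had log2 fold changes of -0.13 to 0.21 with a median of 0.04. By edgeR 0 of 38 rose or fell (0.00% of all genes tested in either direction), with 0 members and 128 of 10601 genes at an unadjusted p under 0.05, and DESeq2 and limma also called 0 members. The members with the smallest p-values were Gins3, Cdc6 and Rfc3. Gins3 had 37.9 and 37.5 CPM in late WT, against 25.1 and 40.0 CPM in early WT, Cdc6 had 81.2 and 97.2 CPM in late WT, against 66.4 and 89.3 CPM in early WT, and Rfc3 had 57.0 and 72.4 CPM in late WT, against 50.1 and 68.1 CPM in early WT. In all 3 the groups overlapped. Both late libraries were above both early ones for 2 members, where 13.4% of all genes were, and below them for 1, where 11.6% were.

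Cdt1, Rfc3 and Lig1 can be followed through both experiments. Cdt1 had 92.0 and 85.5 CPM in early Gata3 KO, against 78.8 and 81.3 CPM in early Gata3 WT, and 63.0 and 88.0 CPM in late Gata3 KO, against 77.8 and 84.2 CPM in late Gata3 WT. It was not called there at either stage. Lig1 had 229 and 228 CPM in early Bcl11b KO, against 268 and 324 CPM in early Bcl11b WT, and 304.5 and 321.5 CPM in late Bcl11b KO, against 472 and 502 CPM in late Bcl11b WT. Its KO libraries were below WT in all 4 comparisons, which share no library between the experiments. Rfc3 had 22.6 and 26.6 CPM in early Bcl11b KO, against 39.6 and 54.1 CPM in early Bcl11b WT, and 29.8 and 22.2 CPM in late Bcl11b KO, against 41.0 and 35.5 CPM in late Bcl11b WT, opposite in sign to the Gata3 experiment. Whether these effects differ between the experiments was not tested.

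Bcl11b and GATA3 peaks were listed at the promoters of the members about as often as at all tested genes. A peak within 1000 bp of an annotated start, without overlap with an input peak, was listed for 11 of 38 members with Bcl11b (28.9%, against 30% of 11488 genes tested for expression) and for 7 with GATA3 (18.4%, against 15.9%). Both factors had such a peak at 5 members (Ccne1, Cdt1, Gins1, Rfc4, Rpa2), Bcl11b alone at 6 and GATA3 alone at 2 (Pole, Rrm1). The strongest was the GATA3 peak at Gins1, with a fold enrichment of 9.11 in the authors' list (chr2:150909613-150910900, mm10), and the strongest with Bcl11b was the one at Cdt1, with a fold enrichment of 4.21 (chr8:122566924-122568644), which covers the window printed above. The Bcl11b peak over the Tk1 window (chr11:117824514-117826422, fold enrichment 1.69) is assigned in that list to Afmid, whose start lies beside it, and so Tk1 is not among the 11. Lig1 had no peak within 1000 bp, and its nearest listed GATA3 peak lay 9555 bp from the start, inside the gene, with a fold enrichment of 7.06 (chr7:13288597-13289041). Rfc3 had a GATA3 peak 6187 bp from its start with a fold enrichment of 2.78. In late Bcl11b KO the median log2 fold change was -0.73 for the 11 members with a Bcl11b promoter peak and -0.72 for the 27 without. In early Gata3 KO it was 0.27 for the 7 members with a GATA3 promoter peak and 0.25 for the 31 without. Members with an E2F octamer had medians of -0.70 in late Bcl11b KO (n = 14), against -0.77 for those without (n = 17), and 0.24 in early Gata3 KO, against 0.30. With 1 ChIP library per antibody, peaks have no replicate check.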

How the data were processed

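RNA was measured in 16 libraries (10 ng RNA amplified, per the labels' protocols) and binding in 3 ChIP libraries. Per the file headers, the authors deposited read counts, RPKM and length per transcript, and for each peak its read count, fold enrichment (a ratio to input), score and FDR in percent. Tools listed in the submitters' processing notes are MACS 1.4.2, TopHat2 2.0.13, CASAVA 2.18, Novoalign and Bowtie, with mm10 as the build. The sources used here do not give the counting tool or its use of strand.

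Per symbol the transcript with the most reads was kept, and for Tyms this is a record of non-coding type. Genes that reached an RPKM of 1 in 2 or more of 8 libraries were tested, 10873 in the Bcl11b and 10601 in the Gata3 experiment, with edgeR 4.0.16 (R 4.3.3): TMM scaling, a quasi-likelihood F test over 8 libraries and 4 groups per experiment, Benjamini-Hochberg adjustment over all genes, and an adjusted p below 0.05. The standard error is the log2 fold change over the square root of F. Each experiment was fitted alone. The code was also run on simulated counts. These were set less variable than the Bcl11b libraries, so that run does not measure missed or false calls there. DESeq2 1.42.0, limma 3.58.1 on log2(RPKM + 1), RLE scaling, no filter, the longest transcript, background subtraction, the 4 libraries compared, a replicate block, left-out libraries and stricter peaks (fold of at least 10) were alternatives, and the fit without both Bcl11b early WT libraries was added after seeing the data. Levels are TMM-scaled CPM, which are relative and do not show total RNA per cell. Summaries and figures were made in Python 3.11.15 (matplotlib 3.10.9, pandas 2.3.3, numpy 2.4.6). No replicate pair held identical counts.

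The members and gene lists were chosen with earlier results of these data known. Genes named with a test are the 6 with the smallest p per direction among called members, or the 3 with the smallest p where fewer than 3 were called. Other members are described by level. The result of 1 further replication factor is not reported here.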

Additional observations from a re-analysis of the deposited data

Results flagged for a closer look

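The effect of Bcl11b KO on Tyms differed between the stages, by -1.39 on the log2 scale (late minus early, interaction term of edgeR's quasi-likelihood test, adjusted p = 0.0459). Its KO libraries were above both WT libraries at the early stage and below both at the late stage. The early comparison rests on the WT libraries with few gene reads, and their part in the difference was not tested.

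The effect of Gata3 KO on Rpa2 differed between the stages by -0.83 (late minus early, interaction term, adjusted p = 0.0335). That on Ccne1 differed by -1.13 (adjusted p = 0.0361). In both genes the early KO libraries were above both early WT libraries and the late groups overlapped. With 1 library left out in turn, the difference was -1.04 to -0.67 for Rpa2 and -1.51 to -0.87 for Ccne1, and each call was lost in 5 of the 8 fits.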

How the results depend on the processing

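Among single-gene values, 465 kept their direction and side of the threshold, 95 kept the direction and lost the call, 21 gained one and 8 reversed. Counts of members called are given with the share of all genes called in the same direction and fit. The ranges with 1 library left out are given without shares. In early Bcl11b KO, 1 member rose (11.0%), and 2 with no filter (8.15%), 24 with limma (60.3%), 0 with the 4 libraries (4.65%) and 0 after background subtraction (10.1%). There 4 fell (10.1%), and 8 with DESeq2 (13.1%), 1 with no filter (8.35%), 0 with limma (3.09%), 0 with the 4 libraries (6.16%) and 8 after background subtraction (9.61%). With limma, which shifted the median of all genes to 0.86, Cdt1 (0.08), Prim2 (0.02) and Uhrf1 (0.34) reversed in sign, though each stayed below that median. With no filter the median of all genes moved to -0.69. In late Bcl11b KO, 2 fell (0.524%), and 15 with DESeq2 (1.88%), 0 with no filter (0.133%), 24 with the 4 libraries (6.10%), 1 with the replicate block (0.322%), 1 after background subtraction (0.322%) and 10 without both early WT libraries (1.28%). For the difference between the Bcl11b effects, 1 fell (1.29%), and 2 with DESeq2 (3.35%), 2 with no filter (1.20%), 34 with limma (53.3%), 0 with the replicate block (0.736%) and 0 after background subtraction (1.00%). For late against early Bcl11b WT, limma gave 34 that rose (65.1%) and 0 that fell (6.38%). Fen1 reversed in sign at 0.19, though it stayed below the median of all genes in that fit. In early Gata3 KO, 6 rose (14.0%), and 12 with no filter (11.8%) and 16 with the replicate block (18.6%). In late Gata3 KO, 1 fell (5.59%), and 2 with DESeq2 (5.69%), 5 with no filter (6.07%) and 6 with the replicate block (10.2%). For the difference between the Gata3 effects, 2 fell (4.47%), and 6 with DESeq2 (4.93%), 10 with no filter (5.07%) and 14 with the replicate block (9.22%). The labels do not say that replicate numbers mark a shared source, and correlations of replicate differences were -0.08 to 0.34 in the Bcl11b and 0.17 to 0.60 in the Gata3 experiment. For late against early Gata3 WT, Cdc6 (-0.01), Gins3 (-0.09) and Rfc3 (-0.08) reversed without early WT replicate 1, and Rfc3 (-0.07) without late WT replicate 2, against 0.43, 0.59 and 0.37 for Cdc6, Gins3 and Rfc3 without early WT replicate 2. With 1 library left out, members called ranged from 0 to 1 (rose) and 1 to 4 (fell) in early Bcl11b KO, 0 to 10 (fell) in late Bcl11b KO, 0 to 1 (fell) for the difference of the Bcl11b effects, 8 to 16 (rose) and 3 to 6 (fell) for late against early Bcl11b WT, 0 to 7 (rose) and 1 to 1 (fell) in early Gata3 KO, 1 to 1 (rose) and 0 to 4 (fell) in late Gata3 KO, and 0 to 9 (fell) for the difference of the Gata3 effects. Each fit with 1 library left out leaves 1 library in a group. The shares of all genes called also differed between these fits, except for late against early Gata3 WT. The ranges are therefore not read as a trait of the members. Promoter peaks with a fold enrichment of at least 10 numbered 0 for both factors. The causes of these changes were not tested. The fit of the 4 libraries compared was not made for the differences between stages.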
